A study of Danio rerio with 3 samples.

Results

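The genes described here encode the tubulins, the stathmins and a set of proteins of the neuronal cytoskeleton. They were chosen by symbol in the platform's probe annotation, when earlier results of these data were known. The symbols took in the tubulins, the stathmins, the neurofilament and internexin genes, the microtubule-associated genes of the tau, Map1, Map2 and doublecortin names, the Dpysl genes with crmp1, and gap43. Of 15571 annotated genes on the array, 43 matched, measured by 58 probes, and 13 of them had more than 1 probe. One of the 43, dcxr, encodes a carbonyl and xylulose reductase and shares only its first letters with doublecortin, so 42 genes belong to the cytoskeleton by name. The symbols gap43, map2, mapta, maptb, map1ab, stmnd1 and tuba8l5 also fit the rule in the RefSeq gene table and were not analysed here.

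RNA came from whole wild-type zebrafish embryos of strain Ab at 48 hours post fertilisation. The treated group held 3 biological replicates of 10 to 15 embryos that had been kept in 40 µM LY-364947, an inhibitor of the TGF-β type 1 receptor kinase, from 8 hours onward. Each was hybridised on a 2-colour array against 1 pool made from 3 untreated replicates, with the dyes swapped for replicate 2. The pool is 1 control sample shared by all arrays, so its own error is in no SD or test given here.

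Values are log ratios of the 2 channels, with base 2 taken as likely. They carry the sign of replicates 1 and 3. The sign of replicate 2 was turned, since its deposited values correlated with theirs at -0.74 and -0.65. If the order of names in the sample titles gives the numerator, a positive ratio means more transcript after treatment. If Cy5 was divided by Cy3, it means the opposite. The sources do not settle which holds, so genes lie here on the positive or the negative side and no direction of the treatment effect is claimed. The deposited values include no intensities, so levels cannot be compared between genes, and no marker can be checked for presence in the embryo. In whole embryos, fewer cells of a type and less RNA per cell cannot be told apart.

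Microtubules are hollow polymers of α- and β-tubulin dimers, which γ-tubulin nucleates, and which dividing cells use for the spindle and neurons for the axon. Stathmins bind free tubulin dimers and destabilise microtubules. The Dpysl proteins, also called collapsin response mediator proteins, bind tubulin and act in axon growth and guidance, as known mainly from mammals. Neurofilaments are the intermediate filaments of mature axons.

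Genes of this set lay on both sides of 0. On the positive side, 12 of 43 passed an adjusted p of 0.05 by limma, against 9.92% of all genes tested. On the negative side 3 of 43 passed, against 9.43% of all genes. The other 28 did not pass. The 12 were 5 Dpysl genes, 3 stathmin genes, 2 α-tubulin and 2 β-tubulin genes, and the 3 were stmn1a, stmn3 and tubg1. The median ratio over the 43 genes was 0.12, and over all 15571 genes it was -0.0013. All 3 arrays were above 0 for 19 of the 43 genes, against 25.9% of all genes, and below 0 for 10 of them, against 26.4%. The counts were 12 and 3 without dcxr as well. Without replicate 1 the median over the 43 genes was 0.063, and without replicate 2 the count on the negative side was 1, against 3.04% of all genes. Of the 58 probes fitted singly, 15 passed above 0, against 5.46% of all probes, and 2 passed below 0, against 4.91%.

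Among the stathmins, 3 of 7 genes passed the threshold above 0 (42.9%, against 9.92% of all genes) and 2 below it (28.6%, against 9.43%). The gene with the largest ratio of the whole set was stmn1b, one of the zebrafish copies of stathmin 1, with 1.11, 1.19 and 1.40 on replicates 1, 2 and 3. Its mean of 1.23 ± 0.15 (SD, n = 3) is a 2.35-fold difference (limma adjusted p = 0.000129), and only 0.392% of all genes had a larger ratio in size. Both of its probes passed on their own, at 1.24 and 1.23. The other copy, stmn1a, lay on the opposite side, with -0.64, -0.60 and -0.63 on replicates 1, 2 and 3. The 3 arrays almost coincided for stmn1a, at a mean of -0.62 ± 0.02 (SD, n = 3), a 1.54-fold difference (limma adjusted p = 0.000492).

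The genes stmn2a and stmn2b, whose product is known in mammals as SCG10 and found in growth cones, lay together on the positive side. For stmn2b the arrays read 0.53, 0.56 and 0.53, with a mean of 0.54 ± 0.02 (limma adjusted p = 0.000846). For stmn2a they read 0.63, 0.55 and 0.41, with a mean of 0.53 ± 0.11 (limma adjusted p = 0.0019). The lowest array of either gene was at 0.41, and their means differed by less than the SD of stmn2a.

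The other stathmin genes had smaller or less regular ratios. With -0.20, -0.14 and -0.21, stmn3 had a mean of -0.18 ± 0.03, which passed narrowly (limma adjusted p = 0.0456). That call was lost without replicate 1, 2 or 3 (adjusted p = 0.147, 0.2 and 0.0708), and with a dye term (adjusted p = 0.186), at means between -0.20 and -0.17. The 1 probe of stmn3 also did not pass when fitted singly among all probes (limma adjusted p = 0.0887). For stmn4 the arrays read 0.01, 0.28 and 0.28, and its mean of 0.19 ± 0.16 did not pass (limma adjusted p = 0.112). Replicate 1 alone stood near 0, and without it stmn4 passed at 0.28 (adjusted p = 0.0362). Without replicate 2 or 3 stmn4 did not pass (adjusted p = 0.472 and 0.205). The arrays of stmn4l disagreed in sign, with -0.52, 0.13 and 0.30, and its mean was -0.03 ± 0.43.

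**Figure D1:**
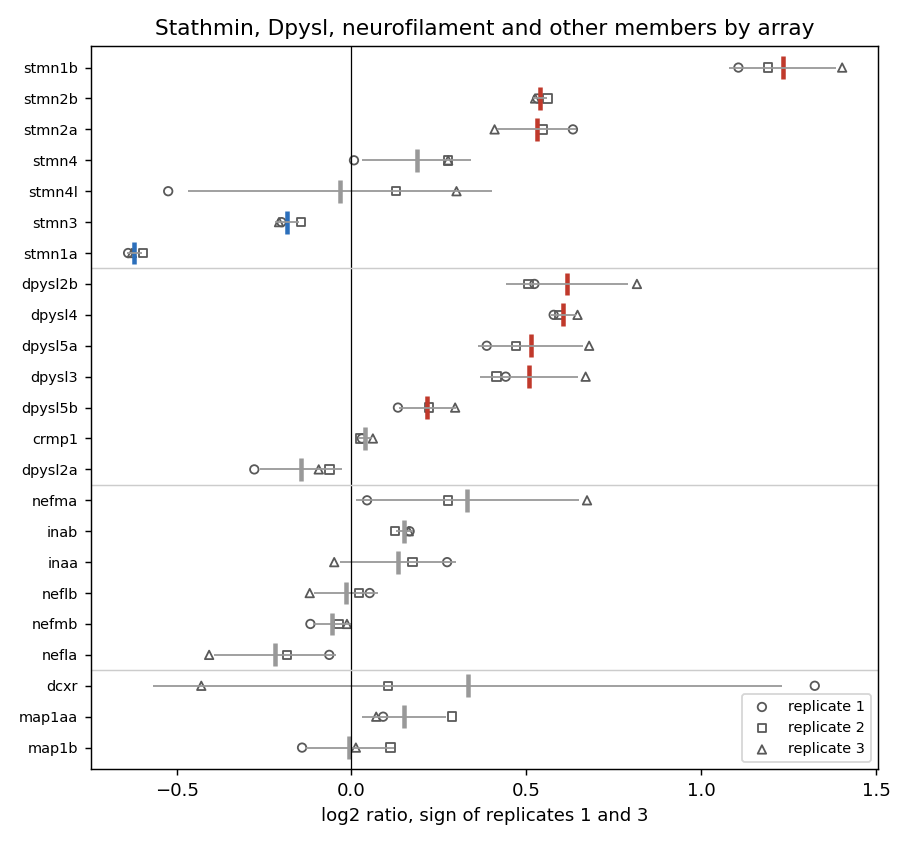
Log2 ratios (x axis, in the sign of replicates 1 and 3) of the stathmin, Dpysl, neurofilament and remaining genes of the set. Open symbols are the 3 arrays, thick ticks the means (red, past an adjusted p of 0.05 above 0, blue, below 0, grey, not past) and lines the SD (n = 3). The 3 arrays of stmn1b lie between 1.11 and 1.40, those of stmn1a between -0.64 and -0.60, and those of dcxr spread from -0.43 to 1.33.

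In the Dpysl family with crmp1, 5 of 7 genes passed above 0 (71.4%, against 9.92% of all genes) and 0 below it (against 9.43%). The family median was 0.51. The largest mean was that of dpysl2b, a copy of the gene for CRMP2, which in mammals binds tubulin dimers and promotes axon growth. Its arrays read 0.52, 0.51 and 0.82, with a mean of 0.62 ± 0.17 and a 1.53-fold difference (limma adjusted p = 0.00222). Replicate 3 was the highest array for each of the 5 genes, by the widest margin for dpysl2b.

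Among the 5 that passed, dpysl4 had the most even ratio, with 0.58, 0.59 and 0.65 and a mean of 0.61 ± 0.04 (limma adjusted p = 0.000572). Its 2 probes stood apart, at 0.43 and 0.79, and both passed on their own. For dpysl5a, a copy of the gene for CRMP5, the arrays read 0.39, 0.47 and 0.68, with a mean of 0.51 ± 0.15 (limma adjusted p = 0.00331). For dpysl3, the CRMP4 gene, they read 0.44, 0.41 and 0.67, again with a mean of 0.51 ± 0.14 (limma adjusted p = 0.00298). The means of these 4 genes lay between 0.51 and 0.62.

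The remaining Dpysl genes had smaller ratios. For dpysl5b the arrays read 0.13, 0.22 and 0.30, with a mean of 0.22 ± 0.08 (limma adjusted p = 0.0362). That call was lost without replicate 2 (adjusted p = 0.214) or 3 (0.0662) and with a dye term (0.136), and of its 2 probes only the one at 0.26 passed singly (adjusted p = 0.047), the other having 0.18 (0.114). The arrays of crmp1 read 0.03, 0.03 and 0.06, and its mean was 0.04 ± 0.02 with a 95% interval from -0.08 to 0.16 (limma adjusted p = 0.645). For dpysl2a they read -0.28, -0.06 and -0.09, with a mean of -0.14 ± 0.12 that did not pass (limma adjusted p = 0.157).

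Of 10 α-tubulin genes, 2 passed above 0 (20%, against 9.92% of all genes) and 0 below it (against 9.43%). With 10 genes, these counts do not set the family apart from all genes. The family median was 0.09. The largest ratio was that of tuba2, with 1.12, 0.90 and 0.83 on replicates 1, 2 and 3. Its mean of 0.95 ± 0.15 is a 1.93-fold difference (limma adjusted p = 0.000344), and 0.809% of all genes had a larger ratio in size. For tuba1c the arrays read 0.83, 0.59 and 0.45, with a mean of 0.62 ± 0.19 and a 1.54-fold difference (limma adjusted p = 0.0026). Both genes had 1 probe each, and in both replicate 1 was the highest array.

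The RefSeq gene order places tuba1c, tuba1a and tuba1b side by side. Their ratios were not alike. The arrays of tuba1a read 0.09, 0.24 and 0.26, all above 0, and its mean of 0.20 ± 0.09 fell short of the threshold (limma adjusted p = 0.0548). For tuba1b, measured by 2 probes, they read -0.07, 0.05 and 0.17, with a mean of 0.05 ± 0.12 (limma adjusted p = 0.625). The lowest array of tuba1c was above the highest array of either neighbour.

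On the negative side, tuba5, tuba8l4 and tuba4l had all 3 arrays below 0 without passing. Their means were -0.22 ± 0.19 (limma adjusted p = 0.0936), -0.22 ± 0.14 (0.0571) and -0.21 ± 0.24 (0.166), and replicate 3 was the lowest array for each. The other α-tubulin genes, tuba8l3, tuba8l2 and tuba7l, had means of 0.20, 0.12 and -0.05, with arrays on both sides of 0. The arrays of tuba8l3 were the most spread of the family, at 0.52, 0.21 and -0.12, and its 2 probes followed the same order.

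Of 7 β-tubulin genes, 2 passed above 0 (28.6%, against 9.92% of all genes) and 0 below it (against 9.43%). With 7 genes, these counts do not set the family apart from all genes. The family median was 0.12. The largest ratio was that of tubb5, with 0.65, 0.68 and 0.30 and a mean of 0.55 ± 0.21 (limma adjusted p = 0.00538). Its 2 probes had 0.54 and 0.55 and both passed on their own. Replicate 3 was the low array, and without replicate 2 the mean of 0.48 did not pass (adjusted p = 0.0599). For tubb4bl the arrays read 0.31, 0.31 and 0.11, with a mean of 0.25 ± 0.12 (limma adjusted p = 0.0335). The call of tubb4bl was lost without replicate 1 (adjusted p = 0.123) or 2 (0.239) and with a dye term (0.0951). Its 1 probe did not pass when fitted singly among all probes (limma adjusted p = 0.0627).

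The 3 probes of tubb4b differed in sign, at -0.07, 0.25 and 0.20, and 1 of them passed on its own (adjusted p = 0.0477). Averaged, its arrays read 0.18, 0.10 and 0.10, with a mean of 0.12 ± 0.05 that did not pass (limma adjusted p = 0.15). The means of tubb2b, tubb1, tubb2 and tubb6 lay between -0.03 and 0.12, with arrays on both sides of 0 in each. Tubulin genes are similar in sequence, and a probe can bind transcripts of more than 1 of them. How far each probe tells its gene from the others was not tested, since the probe sequences were not used here.

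The tubulins outside the α and β families act in nucleation and in the centriole. The arrays of tubg1, which encodes γ-tubulin, read -0.18, -0.27 and -0.29, with a mean of -0.25 ± 0.06 (limma adjusted p = 0.0181). One of its 2 probes passed singly (-0.31, adjusted p = 0.0161), while the other stood at -0.19 (adjusted p = 0.109). The call was lost without replicate 2 (adjusted p = 0.159) and with a dye term (0.0815). For tube1, the ε-tubulin gene, the arrays read -0.10, -0.23 and -0.10, with a mean of -0.15 ± 0.08 that did not pass (limma adjusted p = 0.115). The δ-tubulin gene tubd1 had 0.01, -0.02 and 0.21, and a mean of 0.07 ± 0.13.

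**Figure D2:**
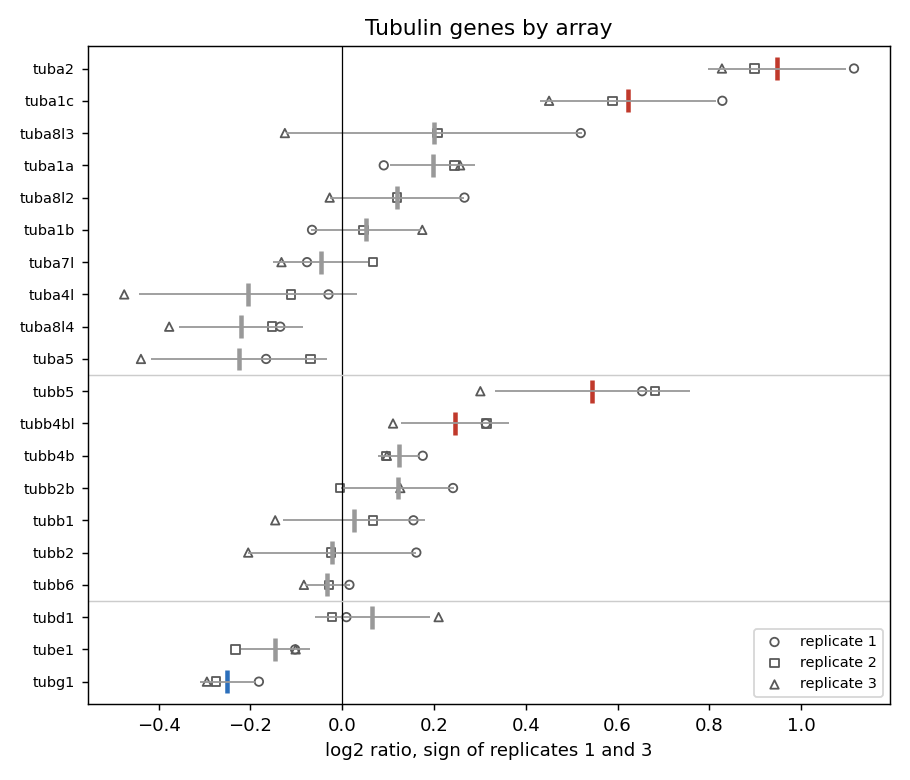
Log2 ratios (x axis, in the sign of replicates 1 and 3) of the 20 tubulin genes, in the blocks α, β and then γ, δ and ε from top to bottom. Open symbols are the 3 arrays, thick ticks the means (red, past an adjusted p of 0.05 above 0, blue, below 0, grey, not past) and lines the SD (n = 3). All arrays of tuba2 lie above 0.8, and all other tubulin genes except tuba1c and tubb5 have means between -0.25 and 0.25.

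None of the 6 neurofilament and internexin genes passed limma at an adjusted p of 0.05. Of all genes, 9.92% passed above 0 and 9.43% below it, so with 6 genes this does not set the group apart. The arrays of nefma, which encodes a medium neurofilament subunit, read 0.04, 0.28 and 0.67, with a mean of 0.33 ± 0.32 (limma adjusted p = 0.0857). Its 2 probes stood apart, at 0.51 and 0.15, and neither passed on its own (adjusted p = 0.0758 and 0.368). Replicate 1 was near 0 and replicate 3 far above it, and without replicate 1 nefma passed at 0.47 (adjusted p = 0.0209). Without replicate 2 or 3 nefma did not pass (adjusted p = 0.252 and 0.134). The neighbour of nefma in the RefSeq gene order, the light subunit gene nefla, ran the other way, with -0.06, -0.18 and -0.41. The mean of nefla was -0.22 ± 0.17 (limma adjusted p = 0.087). Without replicate 1, nefla passed at -0.30 (adjusted p = 0.0493), but not without replicate 2 or 3 (adjusted p = 0.275 and 0.205).

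The internexin genes inaa and inab had means of 0.13 ± 0.17 and 0.15 ± 0.02. For inab the averaged arrays were even, at 0.17, 0.13 and 0.16, but its 2 probes were not, with 0.39 and -0.06 on replicate 1. The remaining subunit genes neflb and nefmb had means of -0.02 ± 0.09 and -0.06 ± 0.05. The genes map1aa and map1b, for large axonal microtubule-associated proteins, had means of 0.15 ± 0.12 (limma adjusted p = 0.147) and -0.01 ± 0.13 (0.965). The arrays of dcxr disagreed more than those of any other gene of the set, with 1.33, 0.10 and -0.43, and its mean was 0.33 ± 0.90. Without replicate 3, dcxr passed at 0.71 (adjusted p = 0.0229), and without replicate 1 its mean was -0.16.

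Zebrafish keep many genes in 2 copies, whose symbols mostly end in a and b, and 8 pairs of the set had such symbols. For tuba1a and tuba1b the letters follow the naming of tubulins. In 4 of the 8, every array of one gene was above every array of the other, and over all 1824 a and b pairs on the array this held for 39.7%. The 1824 pairs were formed by symbol alone, so they can include genes that are not duplicate copies. The difference stmn1a minus stmn1b was -1.75, -1.79 and -2.03, with a mean of -1.85 ± 0.15 (SD, n = 3), a 3.62-fold difference between the ratios of the copies. It ranked 5 by size among the 1824 pairs. In 28 of these pairs the genes passed limma on opposite sides, and of the 8 pairs described here, stmn1a and stmn1b were the 1 that did so.

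The difference dpysl2a minus dpysl2b was -0.80, -0.57 and -0.91, with a mean of -0.76 ± 0.17. For dpysl5a minus dpysl5b the mean was 0.30 ± 0.08, and for nefma minus nefmb it was 0.39 ± 0.27. In each of these pairs the arrays of the copies, averaged over probes, did not overlap. For nefma and nefmb the margin was narrow, with a lowest nefma array of 0.04 and a highest nefmb array of -0.01. A single nefma probe read -0.03 on replicate 1, below that nefmb array. The arrays overlapped for stmn2a and stmn2b, inaa and inab, nefla and neflb, and tuba1a and tuba1b, whose mean differences lay between -0.20 and 0.15. These differences were not fitted by limma and are given without a test. With 3 arrays, a two-sided exact sign permutation cannot go below p = 0.25. That floor holds for single genes as well, whose limma p-values rest on a variance model over all genes.

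**Figure D3:**
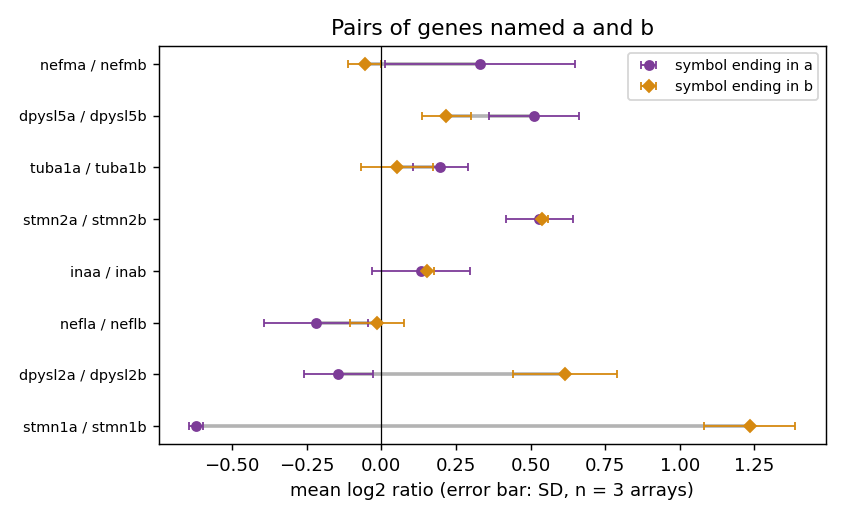
Mean log2 ratio (x axis, error bars SD, n = 3 arrays) of the 8 pairs of genes whose symbols end in a (circles) and b (diamonds), with a grey line joining each pair. The line of stmn1a and stmn1b is the longest, from -0.62 to 1.23, and the symbols of stmn2a and stmn2b coincide near 0.53.

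Genes that act on tubulin and microtubules were read from 4 further lists, and other intermediate filament genes from a list of their own. In the list of tubulin folding factors and the γ-tubulin ring, 2 of 25 measured genes passed above 0 and 2 below it, with a median of -0.03. Positive were vbp1 (0.36 ± 0.07), a prefoldin subunit, and tbca (0.30 ± 0.19), a cofactor that binds β-tubulin. Negative were cct6a (-0.31 ± 0.07), a subunit of the chaperonin that folds tubulin and actin, and pfdn4 (-0.21 ± 0.06), another prefoldin subunit. At 8% on each side, these shares are near those of all genes.

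Among other microtubule-associated and plus-end proteins, 7 of 32 (21.9%, against 9.92% of all genes) passed above 0 and 2 (6.25%, against 9.43%) below it, with a median of 0.07. The 3 with the smallest adjusted p on the positive side were map7d1b (0.41 ± 0.03), eml2 (0.41 ± 0.08) and mapre3b (0.41 ± 0.13), the last an end-binding protein of growing microtubule tips. The negative ones were nde1 (-0.48 ± 0.23), a dynein partner used in the division of neural progenitors in mammals, and dclk1b (-0.39 ± 0.20), a doublecortin-like kinase.

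Of 25 tubulin-modifying and severing enzymes, 3 passed above 0 (12%, against 9.92% of all genes) and 1 below it (4%, against 9.43%), with a median of -0.00067. These shares do not set the list apart from all genes. They included atat1, the enzyme that acetylates α-tubulin, with 0.91, 0.72 and 0.28 on the 3 arrays and a mean of 0.64 ± 0.32 (limma adjusted p = 0.00965). The glutamylase genes ttll4 (0.41 ± 0.12) and ttll1 (0.24 ± 0.10) were the other positive ones, and fignl1 (-0.39 ± 0.05), of the fidgetin family, the negative one. Of 22 genes for axonal transport motors, 5 passed above 0 (22.7%, against 9.92% of all genes). Below 0, 1 passed (4.55%, against 9.43%), and the list median was 0.05. The kinesin genes klc3 (0.35 ± 0.05), kif3a (0.34 ± 0.06) and kif5aa (0.34 ± 0.07) had the smallest adjusted p above 0. The 1 below 0 was the kinesin light chain gene klc1b (-0.45 ± 0.05).

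Of 11 measured intermediate filament genes outside the neurofilaments, 2 passed above 0 (18.2%, against 9.92% of all genes). Below 0, 3 passed (27.3%, against 9.43%), and the list median was -0.07. The positive ones were bfsp2 (0.71 ± 0.10), of the lens fibre cell, and prph (0.39 ± 0.15), peripherin, of peripheral neurons. The negative ones were vim (-0.63 ± 0.21), vimentin, desma (-0.53 ± 0.05), desmin of muscle, and gfap (-0.24 ± 0.06), the glial filament.

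Lists of markers of neurons, dividing cells, neural progenitors, muscle and ciliated cells were read as well. Over all genes, 9.92% passed above 0 and 9.43% below it. Of 27 neuron markers, 15 passed above 0 and 0 below it, with array medians from 0.24 to 0.39, and sypb (0.87 ± 0.01), gng3 (0.70 ± 0.03) and snap25b (0.75 ± 0.07) had the smallest adjusted p. The early neuron marker elavl3 was not among the 15, with -0.16, 0.09 and 0.74 on the 3 arrays. Of 26 markers of dividing cells, 22 passed below 0 and 0 above it, with array medians from -0.43 to -0.25. Smallest in adjusted p were pcna (-0.80 ± 0.05), mcm2 (-0.70 ± 0.04) and mcm7 (-0.67 ± 0.14). The list of neural progenitors had 10 of 20 past the threshold below 0 and 2 above it, with array medians from -0.28 to -0.19. Those below 0 with the smallest adjusted p were slc1a3a (-1.47 ± 0.11), sox3 (-1.24 ± 0.07) and sox19a (-0.94 ± 0.06). The 2 above 0 were fabp7a (0.84 ± 0.18) and sox1a (0.42 ± 0.06), and gfap, described with the filaments, was 1 of the 10.

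Of 17 muscle markers, 9 passed above 0 and 1, desma, below it, with array medians from 0.19 to 0.22. Smallest in adjusted p above 0 were mylpfb (0.63 ± 0.10), acta1b (0.91 ± 0.25) and acta1a (0.50 ± 0.18). Of 30 markers of ciliated cells, which also use tubulin in bulk, 2 passed on each side, and the list median was 0.01. That is 6.67% per side, against 9.92% of all genes above 0 and 9.43% below it. The ciliated cell markers that passed were capsla (0.34 ± 0.09) and ift20 (0.22 ± 0.05) above 0. Below 0 they were rfx4 (-0.41 ± 0.05) and ift57 (-0.31 ± 0.04). Over the whole set, 27 of 43 genes had a mean above 0, against 49.6% of all genes. That held for 26 of 27 neuron markers and 14 of 17 muscle markers. It held for 5 of 20 neural progenitor markers and 0 of 26 dividing cell markers. The genes of the set that passed were sorted by side, so a side shared with a list is no separate result. The part of cell type make-up in the ratios of the tubulin, stathmin and Dpysl genes was not tested.

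**Figure D4:**
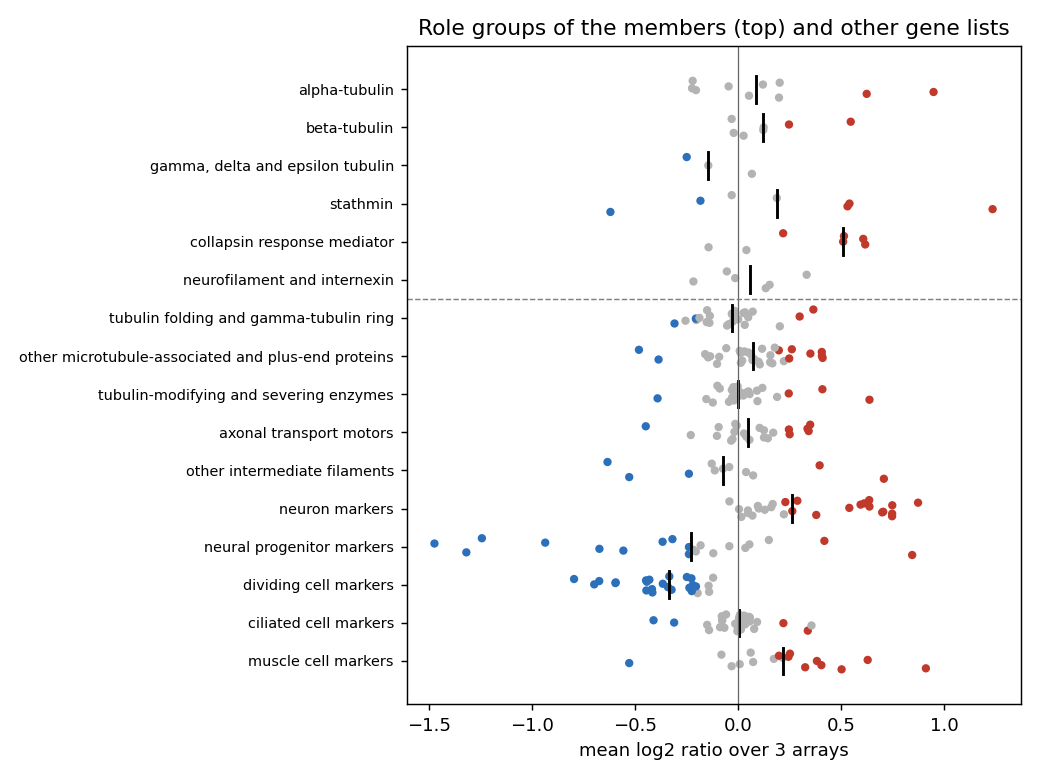
Mean log2 ratio over 3 arrays (x axis) of each measured gene in 6 role groups of the set (above the dashed line) and in 10 further lists (below it). Each point is a gene (red, past an adjusted p of 0.05 above 0, blue, below 0, grey, not past) and each black bar the median. The collapsin response mediator (Dpysl) group has a median of 0.51, the neuron markers 0.26 and the dividing cell markers -0.34.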

How the data were processed

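The table the authors deposited gives each probe 1 log ratio on every array, taken as likely to be log2. Partek is the tool in the submitters' processing notes, which give it no role here. How background and normalisation were handled is not given in the sources used here, nor is the base of the log or the numerator. Signal over background is unknown, and the number of arrays limits the precision. Of 43648 probes, 45 controls were left out. Probes with 1 gene symbol (23717, with 0 of several symbols) were averaged per gene, and 19886 had none. All 43 genes of the set were found by Entrez identifier in the RefSeq table of GRCz12tu, with 0 changed symbols.

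Ratios of all 15571 genes were tested against 0 by limma 3.58.1 (R 4.3.3, lmFit then eBayes). This fit over 3 arrays had 2 residual degrees of freedom, and p-values were adjusted by Benjamini-Hochberg over all genes. Single probes were fitted likewise over 43603 probes. The fit was tested on simulated data. Alternatives covered centring, scaling, quantile normalisation, a dye term, a robust prior, the rule for probes, the threshold and each replicate left out. The set and the lists were chosen with earlier results of these data known. Named genes are all members, and of each list up to 3 per side with the smallest adjusted p among those that passed (elavl3 lies outside this rule and was chosen after its values were seen). Plots used matplotlib 3.10.9.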

Additional observations from a re-analysis of the deposited data

How the results depend on the processing

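All 15 genes that passed kept their side under each of the 10 alternatives that refit the ratios. All 15 also stayed past the threshold with centring, scaling, quantile normalisation, the robust prior and the median of probes. With the probe of largest size per gene 14 did, with a dye term 11, and without replicate 1, 2 or 3 there were 13, 10 and 13. The calls lost were those of stmn3, tubb4bl, dpysl5b, tubg1 and tubb5. The dye term and the fits without a replicate leave 1 residual degree of freedom. The count on the negative side was 1 with a dye term, where 4.32% of all genes passed on that side. It was also 1 at an adjusted p of 0.01, against 4.21% of all genes. In fits without replicate 1, 2 and 3 it was 3, 1 and 2, where 6.54%, 3.04% and 11.6% of all genes passed below 0. The count on the positive side ranged from 9 to 14 in those fits, being 13, 9 and 14 without replicate 1, 2 and 3, where 7.15%, 3.65% and 12.1% of all genes passed on that side. The median of the set ranged from 0.063 to 0.136. Leaving out dcxr, chosen after the data were seen, gave 12, 3 and a median of 0.12. Some genes that had not passed changed side, where the cause was not tested. With a dye term stmn4l stood at 0.0079. Over the fits without a replicate, stmn4l ranged from -0.20 to 0.21, dcxr from -0.16 to 0.71 and tubd1 from -0.0063 to 0.11. With the probe of largest size, nefma (0.51, adjusted p = 0.0393) and tubb4b (0.25, adjusted p = 0.0362) passed. That probe was picked by its ratios on these same arrays, which favours passing. No paired analysis was possible because there is 1 treated group against 1 pool.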
